A study of Mus musculus with 6 samples.

Results

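The transcripts of 4 subunits of cytochrome c oxidase (Cox4i1, Cox5b, Cox6a2 and Cox8a), of the mitochondrial malate dehydrogenase Mdh2 and of the mitochondrial transcription factor Tfam were followed in the soleus of hindlimb-suspended mice. They are the probes annotated with these 6 gene symbols, 1 probe each, out of 203 named genes on the array. The soleus is a slow postural muscle of the lower leg, and hindlimb suspension keeps it from bearing weight. All 6 arrays come from suspended C57Bl/6 mice, and each array received 3 microgram of total RNA prepared from muscle cryosections. The sample titles carry the tags HUR, wt and HS7, which the labels do not spell out, and neither the time of suspension nor the age or sex of the animals is given in the sources used here. No weight-bearing muscle was analysed here, so the values are levels in unloaded muscle and their variation between arrays, not responses to unloading. The labels do not say that each array came from its own animal, so the spread and the p-values below cover these 6 arrays and may be partly technical.

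Cytochrome c oxidase is the last enzyme complex of the respiratory chain: it passes electrons from cytochrome c to oxygen and pumps protons across the inner mitochondrial membrane. Its catalytic core is encoded by mitochondrial DNA, whereas the surrounding subunits, including those measured here, are encoded in the nucleus and imported. Cox4i1 is the widely expressed isoform of subunit IV, Cox5b a zinc-binding subunit on the matrix side, Cox6a2 the isoform of subunit VIa of heart and skeletal muscle, and Cox8a the widely expressed isoform of the small subunit VIII. Mdh2 oxidises malate in the citric acid cycle, and Tfam packages mitochondrial DNA and starts its transcription. A slow oxidative muscle such as the soleus is rich in these proteins.

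Promoter sequences are shown for Cox5b, Cox8a and Mdh2, the members whose levels went together most closely over the arrays, and for Tfam, which did not go with them. A window was found in the RefSeq table (build GRCm38.p6) for 4 of the 6 members. Each sequence holds the 250 bases before the annotated start, 5′ to 3′ on the gene's strand, and capitals mark a match on either strand to one of 4 short motifs.
Cox5b promoter, chr1:36691237-36691486, strand plus: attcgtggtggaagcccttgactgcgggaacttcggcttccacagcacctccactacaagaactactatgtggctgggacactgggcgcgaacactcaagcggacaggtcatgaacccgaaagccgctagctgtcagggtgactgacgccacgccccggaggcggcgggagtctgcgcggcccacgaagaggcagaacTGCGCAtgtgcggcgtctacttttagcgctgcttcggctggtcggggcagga
Cox8a promoter, chr19:7217617-7217866, strand minus: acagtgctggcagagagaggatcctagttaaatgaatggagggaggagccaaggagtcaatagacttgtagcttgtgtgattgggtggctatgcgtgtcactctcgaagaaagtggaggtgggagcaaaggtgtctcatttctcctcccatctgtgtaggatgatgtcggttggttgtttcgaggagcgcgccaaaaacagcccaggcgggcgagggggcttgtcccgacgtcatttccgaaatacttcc
Mdh2 promoter, chr5:135778399-135778648, strand plus: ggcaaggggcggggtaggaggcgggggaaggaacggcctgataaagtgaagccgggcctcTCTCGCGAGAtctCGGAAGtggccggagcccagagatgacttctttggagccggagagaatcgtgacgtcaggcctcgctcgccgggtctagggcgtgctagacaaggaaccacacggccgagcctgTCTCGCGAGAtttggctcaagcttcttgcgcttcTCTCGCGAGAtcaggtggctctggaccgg
Tfam promoter, chr10:71238045-71238294, strand minus: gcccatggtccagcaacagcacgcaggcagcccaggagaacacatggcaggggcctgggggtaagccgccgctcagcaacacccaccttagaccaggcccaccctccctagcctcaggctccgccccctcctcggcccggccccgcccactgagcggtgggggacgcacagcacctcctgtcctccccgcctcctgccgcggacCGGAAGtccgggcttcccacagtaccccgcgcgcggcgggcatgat
The motifs were the ETS core CGGAAG, the nuclear respiratory factor half-site TGCGCA, the TATA box in the form TATAAA and the palindrome TCTCGCGAGA. The last is the only sequence of 10 bases equal to its own reverse complement that occurred more than once in any of the windows. The palindrome was added after the sequences had been seen. Mdh2 held 3 copies of TCTCGCGAGA, starting 190, 63 and 29 bases before the start, and 1 CGGAAG at 177 bases. Tfam held 1 CGGAAG at 46 bases and Cox5b 1 TGCGCA at 52 bases, and none of the matches overlapped another. The Cox8a window held none of the 4 motifs, and TATAAA was in none of the 4 windows. Among all 32851 promoter windows of that length, CGGAAG was in 13.6%, TGCGCA in 6.43%, the palindrome in 0.39% and TATAAA in 12.4%. The GC content was 62.4% for Cox5b, 52.8% for Cox8a, 63.2% for Mdh2 and 72% for Tfam, against a median of 52.4% over all windows. None of the 4 motifs was in more than 1 of the windows of Cox5b, Cox8a and Mdh2.

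Of the 223 probes, 171 had a value above 0 on every array, and all 6 members were among them. The summed intensity was 37.5 on replicate 1 and ran from 15.3 to 18.5 over the remaining arrays. Over the measured probes, the median correlation of replicate 1 with the other arrays was 0.88, against 0.957 to 0.975 for the others, so results are given with and without it. Myh7 and myoglobin (Mb), listed here as slow fibre genes, were above 0 on all arrays, as were most probes. The summed intensity of 3 fast myosin genes lay between 0.867 and 2.47, that of 5 endothelial genes between 0.0698 and 0.0871, and that of the fibroblast genes Fn1 and Pdgfra between 0.0124 and 0.0352. The fat cell gene Fabp4 lay between 0.0255 and 0.0840, and neither of the 2 immune genes probed, Il1b and Il6, was above 0 on all arrays. None of the 2 blood genes and 3 nerve cell genes looked for was among the named probes.

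All 4 oxidase subunits and Mdh2 gave strong signals on every array, and Tfam gave a signal close to background. Levels below are log2 intensities relative to the median of the measured probes of the same array, so 1 unit is a factor of 2. A level also depends on the probe, so levels of different genes are not ranked.

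Cox6a2, the muscle isoform of subunit VIa, had a deposited intensity of 0.392 at the lowest, 0.633 at the median and 1.65 at the highest. The lowest value was on replicate 2 and the highest on replicate 1. Its level was 6.34 ± 0.53 (SD, n = 6), and the SD was 0.38 without replicate 1 (n = 5). Cox4i1, the ubiquitous subunit IV isoform, ran from 0.106 through a median of 0.148 to 0.277 in intensity, again with replicate 2 lowest and replicate 1 highest. Its level was 4.23 ± 0.27 (SD, n = 6), and the SD was 0.23 without replicate 1 (n = 5). The zinc-binding subunit Cox5b had intensities from 0.118 on replicate 5 through a median of 0.148 to 0.407 on replicate 1. Its level was 4.36 ± 0.53 (SD, n = 6), with an SD of 0.41 without replicate 1 (n = 5). Cox8a, the small subunit VIII, ranged from 0.0386 on replicate 5 through 0.0538 to 0.118 on replicate 1. Its level was 2.73 ± 0.44 (SD, n = 6), with an SD of 0.36 without replicate 1 (n = 5).

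Mdh2, the citric acid cycle enzyme, had intensities of 0.0300 on replicate 5, 0.0354 at the median and 0.0726 on replicate 1. Its level of 2.20 ± 0.30 (SD, n = 6) had an SD of 0.23 without replicate 1 (n = 5). On the other 5 arrays its intensity stayed between 0.0300 and 0.0384.

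Tfam, the mitochondrial DNA packaging factor, was at 0.0014 on replicate 1, 0.0015 on replicate 2 and 0.0010 on replicate 3. It was at 0.0027 on replicate 4, 0.0028 on replicate 5 and 0.0019 on replicate 6. The most negative values of these arrays, a gauge of background noise, were -0.0020, -0.0013, -0.0007, -0.0005, -0.0010 and -0.0010 in the same order. On replicate 1 the Tfam value was smaller than that noise, at a ratio of 0.7 to it, and on the others the ratio lay between 1.15 and 5.4. Its level was -2.27 ± 0.66 (SD, n = 6), with an SD of 0.60 without replicate 1 (n = 5). Values are deposited to 4 decimals, so the Tfam values rest on the last digits.

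The median SD of the 6 genes was 0.49, beside 0.48 over all 171 measured probes. The SD of Cox4i1 exceeded that of 19.9% of the measured probes, that of Mdh2 27.5%, Cox8a 45.03%, Cox6a2 54.97%, Cox5b 57.3% and Tfam 69.0%. The 6 genes therefore covered the middle of the range of all probes and stood at neither end.

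**Figure D1:**
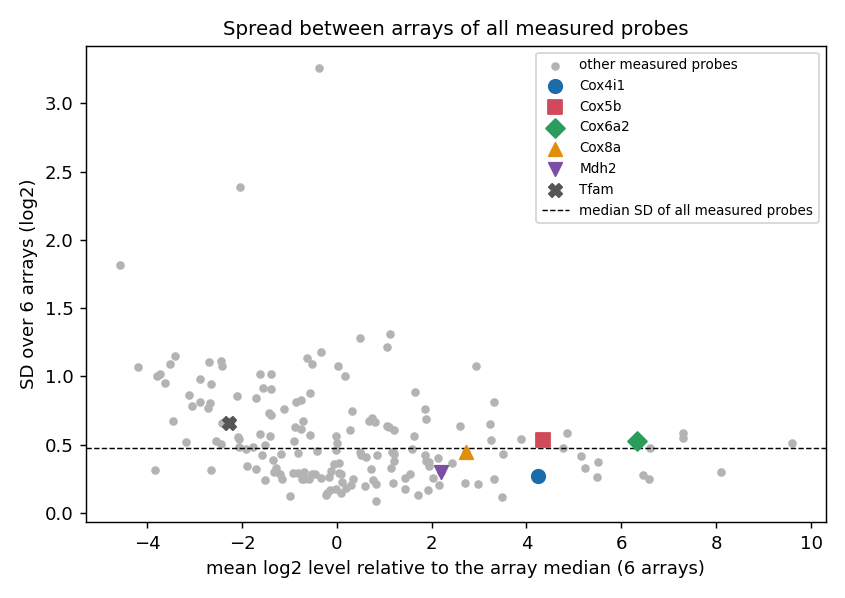
SD over the 6 arrays (y axis, log2) against the mean log2 level relative to the array median (x axis) for the 171 measured probes. Coloured symbols are the 6 genes, grey points the other probes, and the dashed line the median SD of 0.48. Cox4i1 and Mdh2 lie below the line, Tfam lies above it, and the other genes are near it.

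Under median centring the oxidase subunits and Mdh2 shared their 2 highest arrays but not their lowest. For Cox4i1, Cox5b, Cox6a2, Cox8a and Mdh2 alike, replicate 1 had the highest level and replicate 6 the next highest. This held for 5 of the 6 genes and for 13.5% of the 171 measured probes. Cox5b was at 5.14 and 4.88 on replicates 1 and 6 and between 3.85 and 4.26 on the other 4 arrays. Cox6a2 was at 7.16 and 6.74 on replicates 1 and 6 and between 5.71 and 6.25 on the others. For both genes replicates 1 and 6 lay above all the others. In deposited intensity, before centring, replicate 6 was second to replicate 1 for Cox5b, Cox6a2 and Cox8a but lay within the range of replicates 2 to 5 for Cox4i1 and Mdh2. Replicate 2 was lowest for Cox4i1 (3.82) and Cox6a2 (5.71), and replicate 5 was lowest for Cox5b (3.85), Cox8a (2.23) and Mdh2 (1.87). Tfam was lowest on replicates 3 and 1, at -3.07 and -3.04, and highest on replicate 5, at -1.55.

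Replicate 1 stood 0.95 above the mean of the others for Cox5b and 0.99 above it for Cox6a2 on the log2 scale. The difference was 0.76 for Cox8a, 0.55 for Mdh2 and 0.43 for Cox4i1, and it was -0.92 for Tfam. The sign held under every scaling tried for Cox5b, Cox6a2, Cox8a and Tfam, but the size did not. The difference was 0.07 for Cox5b with quantile normalization and -0.40 for Tfam with no centring. When the arrays were centred on reference genes it was 0.07 for Cox8a, 0.26 for Cox5b and 0.30 for Cox6a2. For Cox4i1 it turned to -0.15 with equal array totals, -0.21 with quantile normalization and -0.26 when the arrays were centred on reference genes. For Mdh2 it turned to -0.03 with equal totals and -0.14 with reference genes. Bright probes in general moved the same way: in the 38 brightest probes that are not among the 6 genes, the median deviation from the probe's own mean was 0.22 on both replicates 1 and 6, and between -0.17 and -0.04 on the others. The fast and slow fibre genes were also higher on replicate 1, by a mean deviation of 0.83 and 0.66. Of the 3 fast genes Myh2 stood farthest above its mean, at a level of 4.86 against 3.32. Myh1 was at 6.98 against 6.46 and Myh4 at 5.91 against 5.48. The endothelial genes had a mean deviation of -0.63 on replicate 1. The receptor gene Flt1, at -2.17, was the lowest of the endothelial genes, and their mean was -0.25 without it. Pecam1 was at -0.53, Cdh5 at -0.47, Kdr at -0.10 and Tek at 0.12. On replicate 6 the mean deviations of the fast fibre, slow fibre and endothelial genes were -0.21, 0.02 and 0.29. Myh2 and Myh1 were below their means there, at levels of 2.73 and 6.25, and Myh4 was above its mean, at 5.66. The fat cell gene Fabp4 deviated by 0.73 on replicate 1 and -0.17 on replicate 6, and the fibroblast genes by 0.51 and -0.01. The part of these shifts in the pattern of the oxidase genes was not tested.

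**Figure D2:**
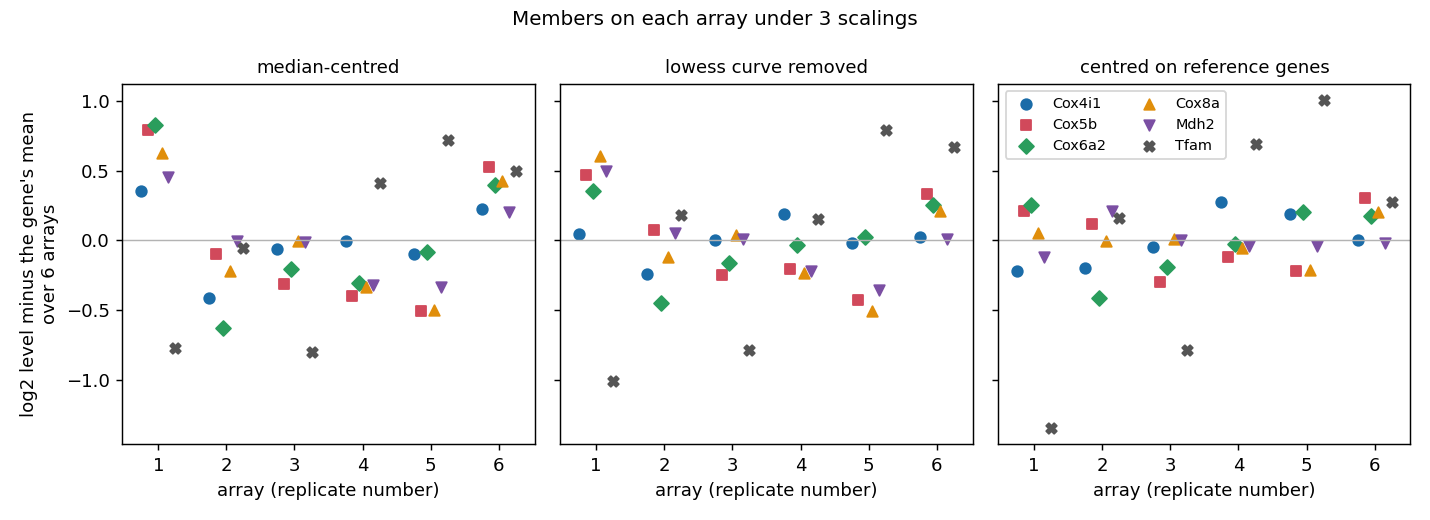
Log2 level of each gene on each array minus the gene's own mean over the 6 arrays (y axis) by replicate number (x axis, no order implied), under median centring, after removal of a lowess curve on level, and after centring on 5 reference genes. Symbols are genes. Under median centring the oxidase subunits and Mdh2 lie above 0 on replicates 1 and 6, by 0.21 to 0.83, and Tfam lies at -0.77 and 0.49 there; centring on reference genes gives SDs of 0.11 to 0.26 for these 5 genes and 0.90 for Tfam.

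Correlation over the arrays was taken for all 14535 pairs of measured probes, and each was tested against all 720 pairings of the arrays (exact permutation test, two-sided). The median Pearson's r was 0.74 over the 15 pairs of the 6 genes, beside 0.02 over all pairs. An exact permutation p at or below 0.05 was found for 5 of the 15 pairs, all with r above 0, against 11.9% of all pairs, or 6.11% counting only r above 0. The 15 pairs share genes and arrays and are not independent of one another. After Benjamini-Hochberg adjustment over all 14535 pairs, 0 of the 15 and 0 of all pairs passed, the lowest adjusted p of the exact permutation test being 0.33. A single pair cannot reach an exact permutation p below 0.0014 with 6 arrays. Over the 38 brightest other probes, a set chosen after the values were seen, the median r was 0.15 and 14.5% of 703 pairs had an exact permutation p at or below 0.05.

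The closest triple was Cox5b, Cox8a and Mdh2. Cox8a and Mdh2 had r = 0.96 (exact permutation p = 0.0028, adjusted over all pairs 0.33) and Spearman's rho of 0.94 (exact permutation p = 0.017, adjusted 0.50). Cox5b and Mdh2 had r = 0.95 (exact permutation p = 0.0014, the smallest possible, adjusted 0.33). Their rho was 1, so the 6 arrays stood in the same order for both genes (exact permutation p = 0.0028, adjusted 0.45). Cox5b and Cox8a had r = 0.95 (exact permutation p = 0.0083, adjusted 0.35) and rho of 0.94 (exact permutation p = 0.017, adjusted 0.50). Without replicate 1 the values of r were 0.92, 0.87 and 0.91 in this order, and these 3 pairs were the only ones of the 15 with an exact permutation p at or below 0.05, beside 6.45% of all pairs. The same 3 were the only ones by Spearman's rho (beside 5.88% of all pairs, 2.93% with rho above 0) and after removal of a lowess curve on level (beside 11.5%). Without the 2 arrays farthest from the median of the first gene, replicates 1 and 6, r was 0.85, 0.84 and 0.57 (n = 4). Removal of the lowess curve left r at 0.95, 0.84 and 0.88. With equal totals r was 0.91, 0.70 and 0.86, and with quantile normalization 0.85, 0.54 and 0.24. Centring on reference genes gave 0.01, 0.06 and 0.74, so the closeness of the triple depended on the scaling.

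Cox4i1 and Cox6a2 formed the other close pair, with r = 0.94 (exact permutation p = 0.0097, adjusted 0.35) and rho of 0.77 (exact permutation p = 0.10, adjusted 0.65). Both were lowest on replicate 2. Their r was 0.92 without replicate 1, 0.84 without replicates 1 and 2 (n = 4) and 0.62 after removal of the lowess curve. With quantile normalization it was -0.89 (exact permutation p = 0.067, adjusted 0.50), but that scaling uses ranks within an array and left tied levels. Cox6a2 then deviated by 0.34 on replicates 1 and 6 and by -0.17 on each other array. Cox4i1 deviated by -0.17 on replicates 1 and 6, 0.008 on replicates 2 and 4 and 0.16 on replicates 3 and 5. Across the pair and the triple the values of r under median centring were lower. Cox6a2 had r = 0.83 with Cox8a (exact permutation p = 0.043, adjusted 0.41) and 0.82 with Cox5b (exact permutation p = 0.054, adjusted 0.42). Without replicates 1 and 6 these turned to -0.27 and -0.92 (n = 4), so both positive values rest on those arrays. Cox6a2 and Mdh2 had r = 0.74 (exact permutation p = 0.089, adjusted 0.46), which likewise turned to -0.57 without replicates 1 and 6. Cox4i1 had r = 0.77 with Cox8a, 0.71 with Cox5b and 0.60 with Mdh2, with exact permutation p of 0.075, 0.12 and 0.19 (adjusted 0.44, 0.49 and 0.55). Without replicates 1 and 2, the arrays farthest from the median of Cox4i1, r was 0.86, 0.97 and 0.78 (n = 4). Without replicates 1 and 6, a choice made after the values were seen, it turned to -0.08, -0.81 and -0.58 (n = 4), so these values too rest on which arrays are used. Cox4i1 and Cox6a2 kept r = 0.82 there (n = 4).

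Tfam had a negative r with each of the other 5 genes, between -0.61 (Mdh2) and -0.19 (Cox4i1), and none passed (exact permutation p between 0.21 and 0.70, adjusted 0.57 to 0.89). Without replicate 1 the values lay between -0.37 and 0.36, and 3 of the 5 were above 0. The Tfam value of that array was below its background noise, as given above.

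**Figure D3:**
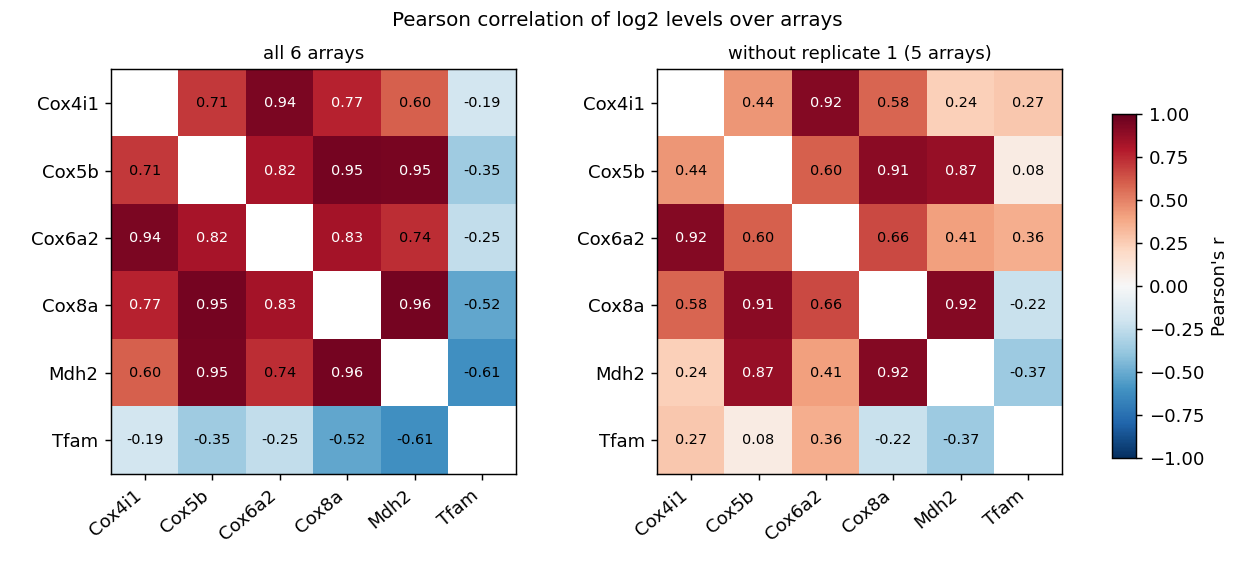
Pearson's r of log2 levels between the 6 genes over all 6 arrays (left) and without replicate 1 (right), as coloured cells with the value printed. The triple of Cox5b, Cox8a and Mdh2 and the pair of Cox4i1 and Cox6a2 stay at 0.87 or above in both, while Tfam is negative with all on the left and mixed on the right.

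The count of pairs depended on single arrays. It was 3 of 15 without replicate 1 (beside 6.45% of all pairs), 10 without replicate 2 (12.1%) and 3 without replicate 6 (11.5%). It was 4 without replicate 3 (9.69%), 4 without replicate 4 (10.4%) and 6 without replicate 5 (9.19%). With equal totals it was 2 and with quantile normalization 1, beside 12.7% and 10.2% of all pairs, so these counts are near or below the background. Cox8a and Mdh2 had an exact permutation p at or below 0.05 under 13 of 14 other planned settings. With arrays 1 and 6 left out, a setting added after the values were seen, it was 0.17 at r = 0.85 (n = 4). The exception among the planned settings was centring on reference genes, where their r was 0.01. The 5 measured reference genes were Gapdh, Pgk1, Rps29, Ywhaz and Tfrc. Under median centring their SDs ran from 0.13 (Tfrc) to 0.70 (Ywhaz), and their mean deviation on replicate 1 was 0.57. Centring on them shifted the arrays so that the mean of these genes was equal. It also takes out variation that the 6 genes share with them. The SD then fell to 0.11 for Mdh2, 0.14 for Cox8a, 0.20 for Cox4i1, 0.25 for Cox5b and 0.26 for Cox6a2, beside a median of 0.52 over all measured probes and 0.36 over the 38 brightest others. That of Tfam was 0.90. The median r of the 15 pairs was 0.01 under this scaling, beside 0.27 over all pairs, and the 1 pair with an exact permutation p at or below 0.05 was Cox6a2 with Mdh2, at r = -0.88 (p = 0.0097, beside 15.9% of all pairs). Shared variation of the oxidase subunits, Mdh2 and the reference genes and a shift of bright probes common to a whole array cannot be told apart.

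**Figure D4:**
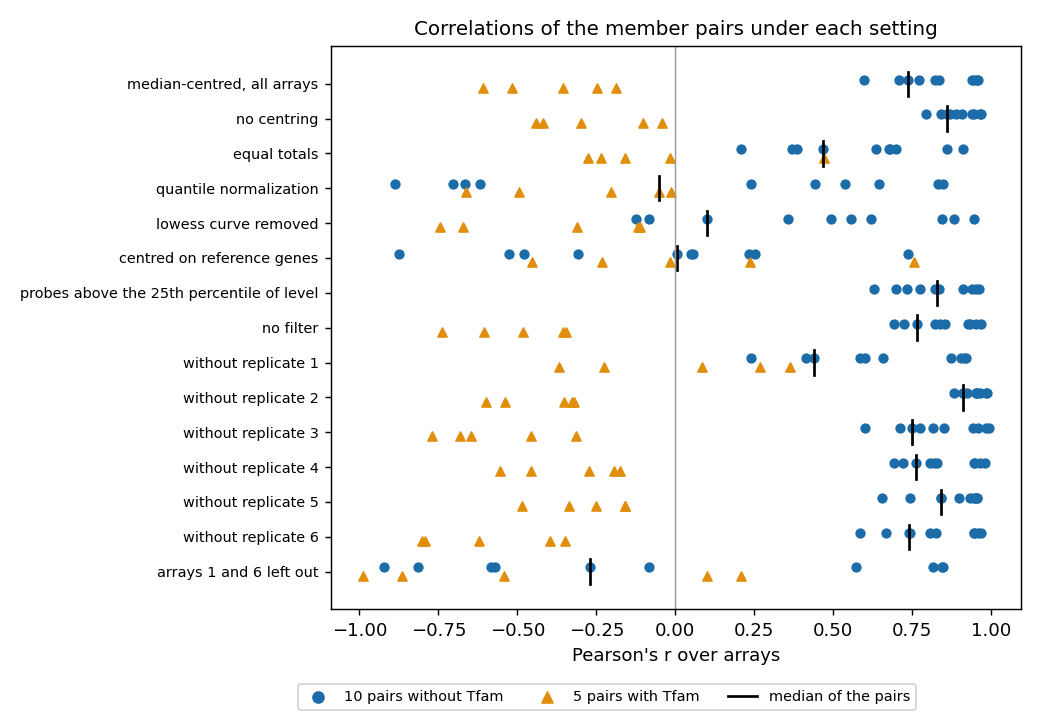
Pearson's r over arrays (x axis) of the 15 pairs under each setting (rows), with circles for the 10 pairs without Tfam, triangles for the 5 pairs with Tfam and a bar for the median. The circles lie at 0.60 or above under median centring with all arrays, and spread to both sides of 0 with quantile normalization, the lowess curve, centring on reference genes and arrays 1 and 6 left out. The stricter filter leaves out Tfam.

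Ratios between the genes were taken within each array, as differences of log2 levels, so that any shift of a whole array cancels. The mean of a ratio reflects the probes as well as the transcripts, and its variation between arrays is what can be read. The 10 ratios without Tfam had SDs from 0.17 to 0.39 with a median of 0.29, beside a median of 0.73 over all pairs of measured probes and 0.56 over pairs of the 38 brightest others. From its lowest to its highest array such a ratio moved by 1.35-fold to 1.99-fold. The median SD of these 10 ratios was 0.29 without replicate 1 as well, beside 0.54 over all pairs.

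Cox5b to Cox8a was at 1.62 ± 0.17 (SD, n = 6) on the log2 scale. Its lowest value was 1.31 on replicate 3, the others ran from 1.55 to 1.78, and the whole range was 1.38-fold. Its SD was the smallest of the 15 ratios, and 0.94% of all pairs had a smaller one. The SD was 0.46 with quantile normalization and 0.096 without replicate 3 (n = 5). Cox8a to Mdh2 was at 0.53 ± 0.18 (SD, n = 6), from 0.32 on replicate 2 to 0.75 on replicate 6. A smaller SD was seen in 0.998% of all pairs. Among the 703 pairs of the 38 brightest other probes, 1.99% had an SD at or below that of Cox8a to Mdh2. Whether Cox5b to Cox8a or Cox8a to Mdh2 had the smaller SD changed with the setting. Cox5b to Mdh2 was at 2.15 ± 0.27 (SD, n = 6). Replicates 1 and 6 gave 2.49 and 2.47 and the remaining arrays 1.85 to 2.07, so the arrays high in both genes were also high in their ratio.

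Cox4i1 to Cox5b was at -0.12 ± 0.39 (SD, n = 6). It was -0.56, -0.44 and -0.43 on replicates 1, 2 and 6, and 0.13, 0.28 and 0.29 on replicates 3, 4 and 5, with no value between. The ratio of the ubiquitous Cox4i1 to the muscle isoform Cox6a2 was -2.10 ± 0.29 (SD, n = 6). Replicate 1 had the lowest value, -2.58, the remaining arrays ran from -2.28 to -1.80, and the SD was 0.19 without replicate 1 (n = 5). Cox6a2 to Cox8a was at 3.60 ± 0.29 (SD, n = 6) and Cox4i1 to Cox8a at 1.499 ± 0.29 (SD, n = 6), with SDs of 0.31 and 0.29 without replicate 1 (n = 5). Cox5b to Cox6a2 was at -1.98 ± 0.32 (SD, n = 6), highest on replicate 2 at -1.45 and lowest on replicate 5 at -2.40. Cox6a2 to Mdh2 was at 4.14 ± 0.36 and Cox4i1 to Mdh2 at 2.03 ± 0.26 (SD, n = 6 each), and both were lowest on replicate 2, at 3.51 and 1.62.

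The 5 ratios to Tfam had SDs of 0.76 to 0.98, or 0.58 to 0.76 without replicate 1 (n = 5). On that array the Tfam value was below the background noise, so its ratios there have no settled size and no place among the arrays.

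**Figure D5:**
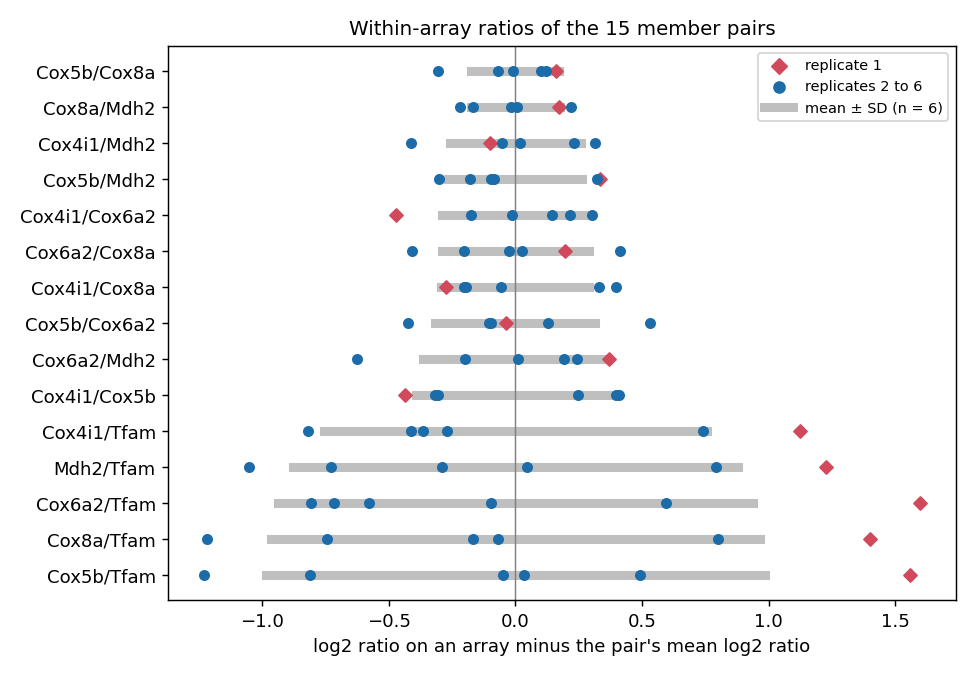
Within-array log2 ratio of each pair minus the pair's mean (x axis), ordered by SD (rows), with replicate 1 as a diamond, replicates 2 to 6 as circles and mean ± SD (n = 6) as a grey bar. Ratios among the oxidase subunits and Mdh2 have SDs of 0.17 to 0.39, and the 5 ratios to Tfam of 0.76 to 0.98, with replicate 1 resting on a Tfam value below background noise.

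Few other mitochondrial genes were on the array. Of 51 genes in a list of the respiratory chain, pyruvate dehydrogenase and citric acid cycle, 6 were probed, namely 5 of the genes above and Pdha1, the catalytic subunit of pyruvate dehydrogenase. Pdha1 had a level of 3.31 ± 0.25 (SD, n = 6) and reached 3.65 on replicate 6 and 3.60 on replicate 1. The remaining arrays ran from 3.09 to 3.27. Its r was 0.97 with Cox8a, 0.94 with Cox5b, 0.89 with Mdh2 and 0.85 with Cox6a2, with exact permutation p of 0.0069, 0.022, 0.021 and 0.047 (adjusted 0.34 to 0.41). Pdha1 thus had an exact permutation p at or below 0.05 with 4 of the 6 genes, as had the reference gene Ywhaz, and the reference genes Gapdh and Rps29 had it with 5 of the 6. The 5 reference genes together had it in 16 of their 30 pairs with the 6 genes and the 7 measured glycolysis genes in 12 of 42, with Gapdh and Pgk1 in both lists. Beside these counts, the share was 11.9% over all pairs of measured probes. For each of the 6 genes with the 165 probes outside them it was 7.27% to 20.6%. Of 20 genes in a list of mitochondrial biogenesis, only Tfam was probed. All 5 probed genes of mitochondrial fat oxidation and uncoupling, of 19 listed, were measured: Acadl, Acadm, Hadh, Cpt1b and Ucp3. An exact permutation p at or below 0.05 was found for 2 of their 30 pairs with the 6 genes, beside 11.9% of all pairs. These were the pairs of the uncoupling protein Ucp3 with Cox4i1 (r = 0.97) and with Cox6a2 (r = 0.96). The beta-oxidation enzymes Hadh, at 2.97 ± 0.21, and Acadm, at 0.51 ± 0.42 (SD, n = 6 each), had r of -0.09 and 0.48 with Cox5b. Without replicate 1 (n = 5) these values were 0.83 and 0.23. On those arrays r with the oxidase subunits and Mdh2 lay between 0.72 and 0.97 for Hadh and between -0.68 and 0.53 for Acadm.

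Myoglobin (Mb), an oxygen store of muscle fibres, was at 6.58 ± 0.25 and followed Mdh2 with r = 0.99 (exact permutation p = 0.0056, adjusted 0.33). The r of this pair was 0.97 without replicate 1 and 0.03 after removal of the lowess curve. The slow myosin Myh7, at 6.60 ± 0.48 (SD, n = 6), had an exact permutation p at or below 0.05 with Cox6a2 alone (r = 0.87, p = 0.0097), and its r with Cox5b was 0.70 with all arrays and 0.02 without replicate 1.

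For each of the 6 genes, the 3 other named genes with the highest Pearson's r over the 6 arrays were listed. Nearest to Cox4i1 were the insulin-responsive glucose transporter Slc2a4 (r = 0.99), Ucp3 (0.97) and the lactate dehydrogenase subunit Ldhb (0.94). Cox6a2 was nearest to the fast myosin Myh4 (0.995), the metalloproteinase inhibitor Timp1 (0.99) and Ldhb (0.98). For Cox5b they were Pdha1 (0.94), the lysosomal protease Ctsh (0.94) and the glycolytic enzyme Gapdh (0.93). For Cox8a they were Gapdh (0.97), the ribosomal protein gene Rps29 (0.97) and Pdha1 (0.97). Mdh2 was nearest to Mb (0.99), Ctsh (0.95) and the growth factor Tgfb1 (0.94). Tfam had another set, with the glucose transporter Slc2a3 (0.92), the DNA polymerase subunit Pola1 (0.89) and the cytokine receptor subunit Il6st (0.87). These are 18 pairs with 14 genes, chosen for a high r, and their adjusted p of the exact permutation test lay between 0.33 and 0.36. Without replicate 1 their r lay between 0.82 and 0.99, and after removal of the lowess curve between 0.03 and 0.97. Cox5b and Mdh2 shared Ctsh, Cox5b and Cox8a shared Gapdh and Pdha1, and Cox4i1 and Cox6a2 shared Ldhb, whereas Tfam shared no neighbour with the others. Genes with a high r to one another tend to share neighbours, so this sharing restates the correlations above and is no separate result.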

How the data were processed

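The deposited table holds 1 linear intensity per probe and array; per the values of the deposited table these intensities were background-subtracted by the authors, since some are below 0. Neither the reference of their scaling nor the scanner or array type is stated in what was used here. Gene names come from GEO's annotation of the platform. Probes above 0 on all 6 arrays were log2-transformed with no pseudocount and centred on their median within each array. Pearson's and Spearman's correlations were computed for every pair of measured probes with exact permutation tests over all pairings of the arrays, two-sided, and adjusted by Benjamini-Hochberg over all pairs (Python 3.11.15, numpy 2.4.6, pandas 2.3.3, statsmodels 0.14.6); the code was tested on simulated data. Named genes are the 6 members, the 3 nearest named probes of each, and the probed genes of fixed mitochondrial and slow fibre lists; other genes named were chosen after their values were seen. Members and lists were chosen with earlier results of these data known. Alternatives changed the scaling, the filter, the correlation measure and the arrays used. With arrays, their number limits the precision, and there is no depth. Promoters came from a RefSeq table, and no protein sequences were used here.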

Additional observations from a re-analysis of the deposited data

Results flagged for a closer look

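Among 23 sets of 6 array values examined (the levels of the 6 genes, their 15 ratios, the array sums and the array correlations), 2 had an outlying array by Dixon's ratio, with a critical value of 0.625 that chance exceeds in about 1 set in 20. Both concern replicate 1 as a whole: its sum of intensities (Dixon's ratio 0.855) and its median correlation with the other arrays (0.821). None of the levels or ratios of the 6 genes passed it.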

How the results depend on the processing

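Pairs of the 6 genes with an exact permutation p at or below 0.05 numbered 5 of 15, beside 11.9% of all pairs. They numbered 2 with equal totals (beside 12.7%), 1 with quantile normalization (10.2%), 3 with the lowess curve (11.5%), 1 with reference genes (15.9%) and 3 with Spearman's rho (5.88%). They numbered 7 with no filter (11.8%), 6 with no centring (17.2%) and 6 of 10 with the stricter filter (15.7%). Leaving out single arrays gave 3 to 10. The median correlation of the pairs was 0.74; it was -0.050 after quantile normalization, 0.0054 with reference genes and 0.10 with the lowess curve; leaving out single arrays gave 0.44 to 0.91. The median SD of the genes was 0.49. It was 0.31 with equal totals, 0.30 after quantile normalization, 0.22 with reference genes and 0.32 with the lowess curve. The median SD of the ratios was 0.32. No centring, equal totals, reference genes and no filter only shift whole arrays, which cancels in a ratio, so they could not change this value and do not test it. Quantile normalization raised it to 0.45, and removal of the lowess curve gave 0.34. It lay between 0.30 and 0.35 when single arrays were left out, and was 0.29 under the stricter filter, which drops Tfam. These moves were smaller than the spread between ratios. The sign of r turned for Cox4i1 with Tfam to 0.47 with equal totals and 0.76 with reference genes. Leaving out single arrays gave -0.35 to 0.27 for Cox4i1, -0.68 to 0.084 for Cox5b and -0.46 to 0.36 for Cox6a2 with Tfam, positive in each case without replicate 1, and rho of Cox6a2 with Tfam was 0.086. With quantile normalization Cox4i1 turned with Cox5b (-0.62), Cox6a2 (-0.89), Cox8a (-0.67) and Mdh2 (-0.71). Its levels under that scaling were tied between arrays, as given above. With the lowess curve Cox4i1 turned with Cox5b (-0.082) and Mdh2 (-0.12). With reference genes it turned with Cox5b (-0.53), Cox8a (-0.48) and Mdh2 (-0.31), as did Cox6a2 with Mdh2 (-0.88) and Mdh2 with Tfam (0.24). With arrays 1 and 6 left out together, an alternative added after seeing the data, Cox4i1 turned with Cox5b (-0.81), Cox8a (-0.082), Mdh2 (-0.58) and Tfam (0.10), and Cox6a2 with Cox5b (-0.92), Cox8a (-0.27), Mdh2 (-0.57) and Tfam (0.21). Tfam fell below the 25th percentile of level and dropped out under that filter. Scaling sets part of any correlation over arrays, and the cause of these turns was not tested. Signal over background limits Tfam. No paired analysis was possible because the labels give 1 group.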
